A study of Rattus norvegicus with 12 samples.

Results

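The genes of gp130, the oncostatin receptor and STAT3 were followed in primary neuroglial cultures of the rat cortex after the addition of material secreted by human glial progenitor cells. They form a list of 10 names selected on TPM levels measured in these same libraries, with the differences from control already known, and all 10 were found among the 28111 gene names of the files. They comprise the receptor subunits Il6st, Osmr and Lifr, the kinases Jak1 and Jak2, the transcription factor Stat3, its feedback inhibitor Socs3 and the transcription factors Cebpb, Cebpd and Bcl3.

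Cytokines of the interleukin-6 family signal through gp130, the shared receptor subunit encoded by Il6st. Gp130 pairs with the oncostatin M receptor (Osmr) or the leukaemia inhibitory factor receptor (Lifr), and Janus kinases bound to the receptor tails phosphorylate STAT3, which then enters the nucleus and activates transcription, its own gene and that of its inhibitor Socs3 included. In the brain this pathway is known for its part in astrocyte differentiation and in the reactive state of astrocytes.

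The cultures were prepared from newborn Wistar rats, with cytosine arabinoside given to limit glial division, and RNA was collected at 10 days in vitro, 4 h after the addition. There were 4 groups with 3 libraries each: intact control (IC), which received nothing, EV with extracellular vesicles of glial progenitor cells at 10 µg/mL, 3–100 kDa proteins at 15 µg/mL and total secretome at 45 µg/mL. The progenitor cells derive from human induced pluripotent stem cells and were grown with CNTF, itself a ligand of gp130 and Lifr, before they were washed and left in serum-free medium. The doses differed between the 3 preparations, so differences between them compare these preparations at these doses. The article says in general terms that its experiments were repeated on unrelated cultures, but no source used here ties the 3 libraries of a group to separate cultures or animals. The p-values then measure only the spread between these libraries, which may be technical.

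Levels are given in TPM, the share of transcripts after scaling for transcript length. Differences were computed on log2(TPM + 1), a scale that understates changes of low genes. The depth of the libraries is not known from TPM, and the number of libraries limits the precision. The gene Rps6, which every cell uses, was listed at 0 in all 12 libraries, so a value of 0 is reported below only as listed at 0. In bulk RNA, fewer cells of a type and less RNA per cell cannot be told apart.

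Neuronal and astrocytic markers were high in every library, as the label of a neuroglial culture implies. The 6 neuronal markers summed to 2816 to 3695 TPM and the 7 astrocyte markers to 801 to 1520 TPM. The markers of microglia or macrophages, in which oncostatin M and interleukin-6 are commonly made, summed to at most 2.20 TPM in any library. Those of endothelium reached 0.758 TPM and those of fibroblasts or mural cells 4.28 TPM. The 8 markers of the oligodendrocyte lineage summed to 183 to 236 TPM in IC, 193 to 232 TPM in EV, 124 to 189 TPM in 3–100 kDa proteins and 238 to 265 TPM in total secretome. Of the markers, Pdgfrb, a receptor of mural cells, was called lower with 3–100 kDa proteins than in IC (log2 difference -1.43 ± 0.24, adjusted p = 0.0234, limma), a call lost without 3–100 kDa protein replicate 1 (0.0674), 2 (0.0773) or 3 (0.134). It passed the filter only through the IC libraries, since 3–100 kDa protein libraries had 0.321 to 0.851 TPM and IC 2.45 to 4.01 TPM, and with no filter its adjusted p was 0.0252. Olig1 was higher in EV than in 3–100 kDa proteins (0.60 ± 0.16, adjusted p = 0.272, or 0.0413 with the replicate block). Their part in the results below was not tested.

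In intact cultures the kinase and receptor genes were present, whereas Osmr was close to 0. By mean TPM in IC, Jak1 was highest with 59.4 ± 18.7 (SD, n = 3). Stat3 (27.9 ± 1.95), Jak2 (26.2 ± 4.94) and Il6st (22.9 ± 6.55) followed, and their libraries overlapped. Lifr had 5.50 ± 2.40 TPM, Cebpb 3.22 ± 1.71, Cebpd 2.04 ± 1.66 and Socs3 1.11 ± 0.381, each overlapping its neighbour in this order except that Cebpb and Socs3 did not overlap. Bcl3 was listed at 0 in all 3 IC libraries.

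**Figure D1:**
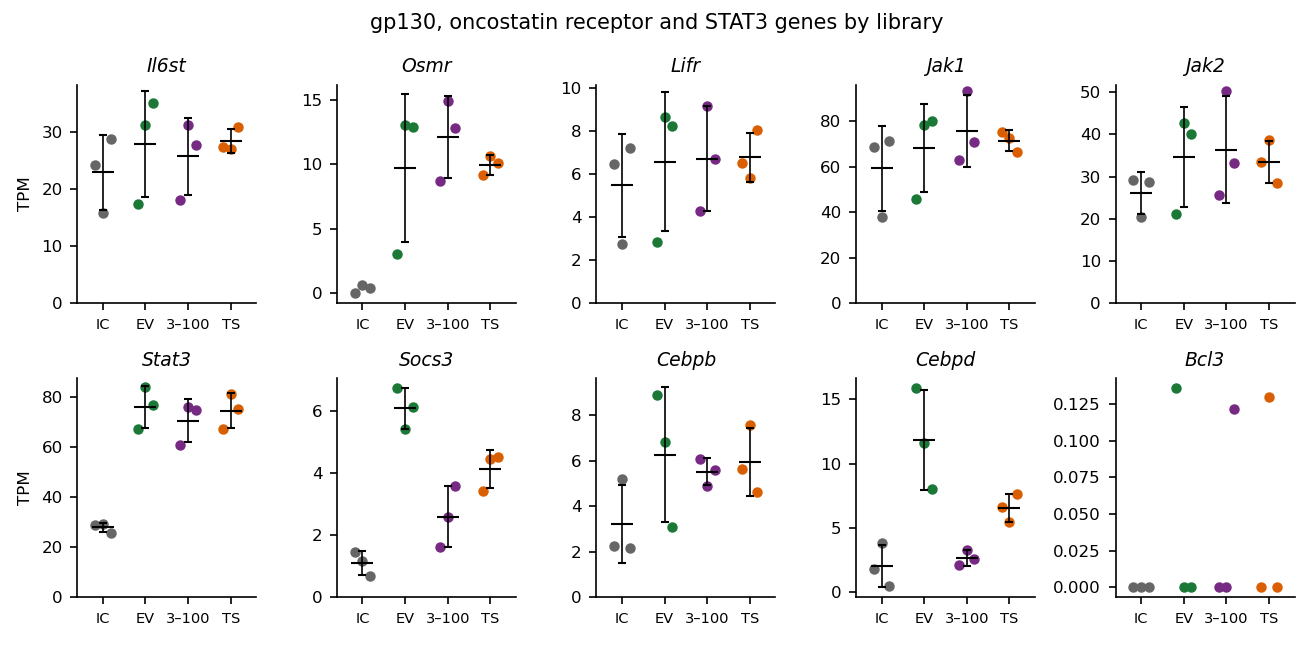
Level (TPM, linear axis) of the 10 genes in each of the 12 libraries; points are libraries in the order of replicate 1 to 3, black bars the mean ± SD where no library of the group is listed at 0, and TS is the total secretome. Stat3 and Osmr lie above every IC library in all 3 treated groups, whereas Socs3 and Cebpd are highest in EV.

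Osmr, the subunit that makes gp130 a receptor for oncostatin M, was the member with the largest difference from control after each preparation. In the 3 IC libraries, in order of replicate, the values were 0, 0.682 and 0.451 TPM. In EV it had 3.08, 13.1 and 12.9 TPM, in 3–100 kDa proteins 8.69, 14.9 and 12.8 TPM, and in total secretome 9.15, 10.6 and 10.1 TPM. Every treated library lay above every IC library, and EV replicate 1 was the lowest of the treated. The log2 difference from IC was 2.77 ± 0.50 (SE) in EV, 3.27 ± 0.29 in 3–100 kDa proteins and 3.03 ± 0.25 in total secretome. Osmr passed the filter on low values against IC only through the treated libraries.

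The partner subunits showed no such separation. Il6st had 24.2, 15.8 and 28.8 TPM in IC and 17.3, 31.1 and 35.1 TPM in EV, and its log2 difference was 0.24 with a 95% interval from -0.52 to 1.0. In 3–100 kDa proteins it had 18.1, 31.2 and 27.7 TPM and in total secretome 27.4, 27.0 and 30.7 TPM, so all 4 groups overlapped. Lifr, which completes the receptors for LIF and CNTF, had 6.48, 2.77 and 7.25 TPM in IC and 2.85, 8.67 and 8.24 TPM in EV. Its log2 difference from IC was 0.18 in EV (95% interval -0.88 to 1.24), 0.31 in 3–100 kDa proteins (-0.57 to 1.18) and 0.35 in total secretome (-0.43 to 1.12). These intervals include 0 and leave room for a difference of up to 1.24.

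The kinases likewise overlapped between groups. Jak1 had 68.8, 37.9 and 71.5 TPM in IC and 45.9, 78.6 and 80.2 TPM in EV. Jak2 had 29.3, 20.5 and 28.7 TPM in IC and 21.1, 42.7 and 40.2 TPM in EV. The log2 difference of Jak1 was 0.20 in EV (95% interval -0.54 to 0.94), 0.41 in 3–100 kDa proteins and 0.33 in total secretome, and that of Jak2 was 0.34 (-0.33 to 1.01), 0.45 and 0.37 in the same order. IC replicate 2 and EV replicate 1 had the lowest Il6st, Lifr, Jak1 and Jak2 of their groups. The part of these libraries in the differences was not tested beyond leaving them out.

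Stat3, the transcription factor of the pathway, had the smallest standard errors of the members that separated from control. It had 28.9, 29.1 and 25.7 TPM in IC, 67.1, 83.9 and 76.9 TPM in EV, 60.7, 76.2 and 74.9 TPM in 3–100 kDa proteins and 67.1, 81.0 and 75.3 TPM in total secretome. The lowest treated library was above the highest IC library by more than the range of IC. On the log2 scale the difference from IC was 1.40 ± 0.13 in EV, a fold of 2.64. It was 1.33 ± 0.15 in 3–100 kDa proteins and 1.40 ± 0.14 in total secretome.

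Socs3, which binds gp130 and the kinases and ends the signal, was highest in EV. Its levels were 1.45, 1.18 and 0.699 TPM in IC and 6.72, 5.40 and 6.10 TPM in EV. In 3–100 kDa proteins it had 1.62, 2.59 and 3.58 TPM and in total secretome 3.42, 4.45 and 4.52 TPM. No treated library overlapped IC, and no EV library overlapped another group. The log2 difference from IC was 1.76 ± 0.23 in EV, 0.78 ± 0.29 in 3–100 kDa proteins and 1.31 ± 0.23 in total secretome.

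Cebpd, a C/EBP factor of the acute-phase response and a known STAT3 target, followed the same order of groups. It had 1.82, 3.81 and 0.502 TPM in IC, 15.8, 11.6 and 8.03 TPM in EV, 2.10, 3.30 and 2.57 TPM in 3–100 kDa proteins and 6.62, 5.48 and 7.63 TPM in total secretome. EV and total secretome did not overlap IC or each other, whereas the 3–100 kDa protein libraries lay within the range of IC. The log2 difference from IC was 2.19 ± 0.44, 0.44 ± 0.41 and 1.49 ± 0.40 for EV, 3–100 kDa proteins and total secretome.

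Its relative Cebpb did not separate in any preparation. Cebpb had 2.27, 5.19 and 2.19 TPM in IC and 8.92, 6.83 and 3.08 TPM in EV, so that IC replicate 2 exceeded EV replicate 3. The log2 difference from IC was 0.76 ± 0.41 in EV, 0.72 ± 0.30 in 3–100 kDa proteins and 0.79 ± 0.31 in total secretome. Bcl3, an IκB-like partner of NF-κB and a STAT3 target, was above 0 in 1 library of each treated group, at 0.136 TPM in EV, 0.121 TPM in 3–100 kDa proteins and 0.130 TPM in total secretome. It was never tested and no fold was computed.

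The question of the comparison of EV with IC is what the vesicles change in an intact culture. Since the members were listed with this comparison known, its values are a description and no p-value is given for them. By limma with Benjamini-Hochberg adjustment over 12757 genes, 1 of the 9 members tested (Stat3) was called higher, beside 0.102% of all genes tested. That call was lost with the replicate number as a block and without IC replicate 1 or 3 or any 1 EV library, while the log2 difference of Stat3 without 1 library stayed between 1.36 and 1.47. All libraries of 4 members (Osmr, Stat3, Socs3 and Cebpd) lay above IC, beside 3.21% of all genes. The median log2 difference of the 9 members was 0.76 and that of all genes -0.01. That of the members was 0.44 without EV replicate 2 and 0.29 when only genes with a mean of at least 5 TPM were kept. Nothing is read from these counts.

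The soluble proteins and the whole secretome were compared with IC in the same way. The p-values below come from the fit over all genes, but they use the same IC libraries as the EV comparison, and the list was made with these results also known, so they are not independent evidence on the members. For Osmr, which entered the test only through the treated libraries, no p-value is given, and its place in the counts supports nothing. With 3–100 kDa proteins, Osmr and Stat3 (adjusted p = 0.00532, limma) were called higher, 2 of 9 members beside 2.82% of 12789 genes called higher. Socs3 had an adjusted p of 0.227, Cebpb of 0.27 and Cebpd of 0.662. All libraries of 3 members lay above IC, beside 10.7% of all genes, and the median log2 difference was 0.45 for the members and -0.02 for all genes. That of the members was 0.81 without IC replicate 2 and 0.75 with a pseudocount of 0.1.

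With the total secretome, Osmr, Stat3 (adjusted p = 0.00481, limma) and Socs3 (adjusted p = 0.0394) were called higher, 3 of 9 members beside 1.68% of 12791 genes called higher. Socs3 and Cebpd each reached the 1 TPM of the filter in 2 of 3 IC libraries and so were tested only with the help of the treated libraries. With no filter the adjusted p of Socs3 was 0.0574. Cebpd had an adjusted p of 0.124 (0.185 with no filter) and Cebpb of 0.263. All libraries of 4 members lay above IC, beside 11.4% of all genes, and the median log2 difference was 0.79 for the members, or 0.36 with the filter at a mean of 5 TPM, and -0.01 for all genes. With the replicate number as a block, the adjusted p of Socs3 became 0.0646. Its call was also lost without IC replicate 1 (0.118) or 3 (0.0975) and without total secretome replicate 1 (0.0682), 2 (0.216) or 3 (0.212). Stat3 lost its call without total secretome replicate 3 (adjusted p = 0.0527), whereas without IC replicate 2 Cebpd (0.0234) and Cebpb (0.044) passed, and Cebpd also in the fit of all 12 libraries (0.0497).

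**Figure D2:**
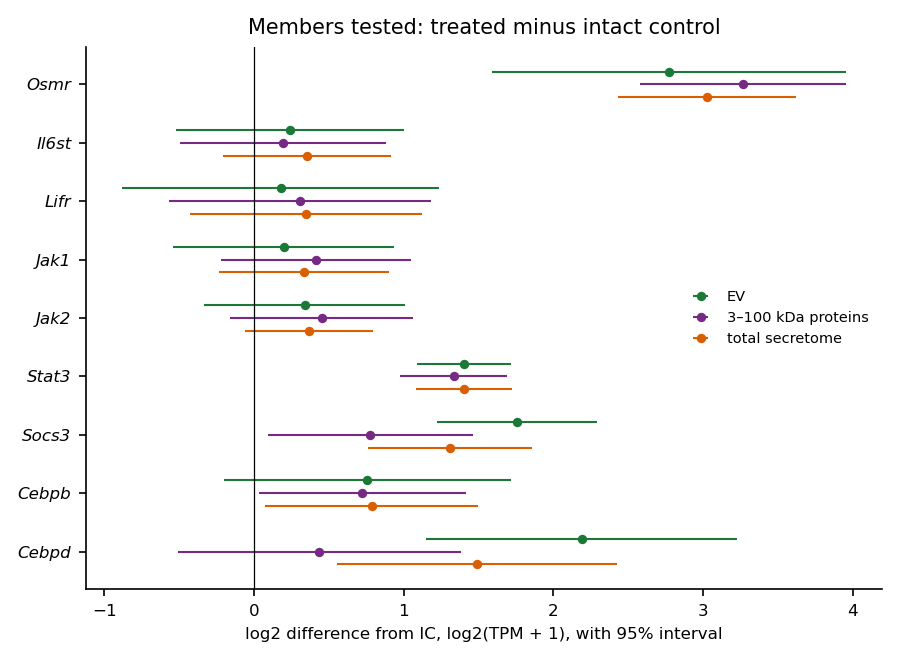
Log2 difference from IC on log2(TPM + 1) for the 9 members tested, with 95% intervals from limma, in EV (green), 3–100 kDa proteins (purple) and total secretome (orange). Osmr and Stat3 lie near 3 and 1.4 with all preparations, and Socs3 and Cebpd lie at 1.76 and 2.19 in EV but at 0.78 and 0.44 in 3–100 kDa proteins.

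The preparations were then set against each other. For Stat3 the difference between EV and 3–100 kDa proteins was 0.08 on the log2 scale, with a 95% interval from -0.28 to 0.44, and that between EV and total secretome was 0.01 (-0.32 to 0.35). Osmr gave -0.50 (-1.65 to 0.65) and -0.25 (-1.30 to 0.79), intervals too wide to show a like response. Il6st, Lifr, Jak1, Jak2 and Cebpb differed by between -0.20 and 0.06 from 3–100 kDa proteins and by between -0.16 and -0.02 from total secretome, and each interval included 0.

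Socs3 and Cebpd were higher in EV than in 3–100 kDa proteins in every pair of libraries, but neither passed the test. The log2 difference was 1.76 (1.11 to 2.40) for Cebpd, with an adjusted p of 0.0573, and 0.98 (0.33 to 1.64) for Socs3, with an adjusted p of 0.284 (limma). With the replicate number as a block the adjusted p of Cebpd was 0.0334, without rescaling 0.039 and in a fit of all 12 libraries 0.0453. These were the 3 of 14 alternatives in which it passed (adjusted p from 0.0334 to 0.264 over the 14). The list was made with these levels known, so these p-values are not independent evidence on the members. These 2 were the members without overlap in that direction, beside 7.39% of all genes. Against total secretome, Cebpd differed by 0.71 (0.08 to 1.34) and Socs3 by 0.45 (-0.05 to 0.96), and between total secretome and 3–100 kDa proteins by 1.06 (0.56 to 1.55) and 0.54 (-0.11 to 1.18). In the fits of 2 groups after rescaling and without the block, limma called 0 members between the preparations. At an unadjusted p under 0.05, 2 members passed between EV and 3–100 kDa proteins (beside 9.35% of all genes in either direction), 1 between EV and total secretome (7.7%) and 1 between total secretome and 3–100 kDa proteins (2.64%). Of all genes, 0.0393% were called higher and 0.495% lower in EV than in 3–100 kDa proteins, 0.047% higher and 0.141% lower in EV than in total secretome, and 0.00786% in each direction between total secretome and 3–100 kDa proteins.

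**Figure D3:**
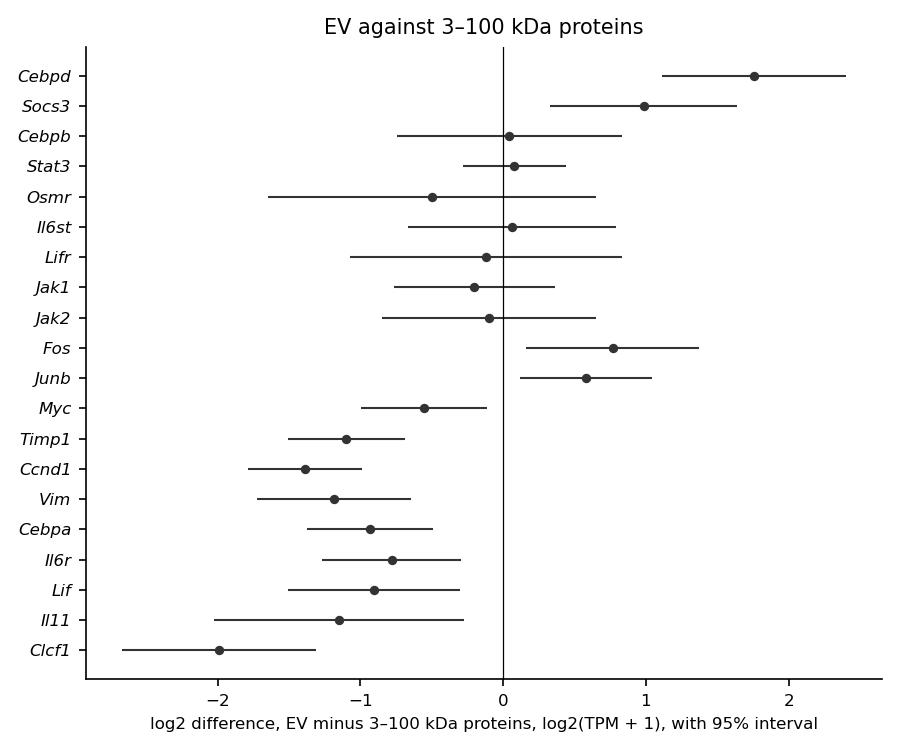
Log2 difference on log2(TPM + 1), EV minus 3–100 kDa proteins, with 95% intervals from limma, for the 9 members tested and 11 further genes of the pathway. Cebpd, Socs3, Fos and Junb lie to the right of 0, and Clcf1, Ccnd1, Vim, Timp1 and Il11 lie between -1.99 and -1.10.

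Of the 9 ligand genes of the family, Clcf1 was the one called. Clcf1 encodes cardiotrophin-like cytokine factor 1, a secreted cytokine that binds the CNTF receptor complex. It had 0.121, 0.0986 and 0 TPM in IC, 0.557, 0.555 and 0.568 TPM in EV, 3.70, 4.81 and 7.38 TPM in 3–100 kDa proteins and 2.06, 2.13 and 1.91 TPM in total secretome. The 4 groups did not overlap, and EV lay nearest to IC. Clcf1 was higher than in IC by 2.53 ± 0.29 on the log2 scale with 3–100 kDa proteins (adjusted p = 0.00556, limma) and by 1.51 ± 0.22 with total secretome (adjusted p = 0.0175). It passed the filter only through these 2 groups, so that tested genes of this kind had to differ, and it was not tested between EV and IC. With no filter the adjusted p was 0.0106 with 3–100 kDa proteins and 0.00827 with total secretome. EV was lower than 3–100 kDa proteins by a log2 difference of -1.99 ± 0.29 (adjusted p = 0.0426, or 0.0735 with no filter). The call with total secretome was lost without IC replicate 1 (0.0708) or 3 (0.0547), and that between EV and 3–100 kDa proteins without EV replicate 1 (0.0636), 2 (0.18) or 3 (0.16).

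The other ligands given here were not called in any comparison. Lif had at most 0.357 TPM in IC and 0.452 TPM in EV, but 1.21, 1.17 and 2.03 TPM in 3–100 kDa proteins (log2 difference from IC 1.10 ± 0.27, adjusted p = 0.084, limma). It too passed the filter only through the 3–100 kDa protein libraries, and with no filter the adjusted p was 0.0679. Il11 had 1.33 ± 0.184 TPM in IC (n = 3) and 2.56, 3.20 and 6.64 TPM in 3–100 kDa proteins (1.09 ± 0.34 on the log2 scale, adjusted p = 0.154, limma). Cntf, made by astrocytes, had 3.91 to 10.3 TPM over all libraries, and its groups overlapped. Osm, the ligand of the receptor whose gene differed most, and Il27 were listed at 0 in all 12 libraries, and Il6 was listed at 0 in 10 of them, with 0.288 TPM as its highest value.

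Among 6 further receptor subunits, Il6r was the one called. Il6r binds interleukin-6 before gp130 does. It had 0.172, 0.0466 and 0.166 TPM in IC, 0.42, 0.327 and 0.376 TPM in EV, 1.44, 1.55 and 1.08 TPM in 3–100 kDa proteins and 0.865, 1.21 and 1.28 TPM in total secretome. With 3–100 kDa proteins it was higher than in IC by 1.07 ± 0.21 on the log2 scale (adjusted p = 0.046, limma). It passed the filter only through the 3–100 kDa protein libraries, and with no filter the adjusted p was 0.0123. The call was lost without IC replicate 1 (0.137), 2 (0.0778) or 3 (0.109), without rescaling (0.0727) and with a pseudocount of 0.1 (0.0789). It was too low for the filter in the other comparisons with IC. Cntfr, the CNTF-binding subunit, was by far the most abundant of these with 38.5 to 51.4 TPM, and its log2 difference from IC was -0.22 ± 0.13 in EV. Il11ra1 had 2.15 to 10.1 TPM and a log2 difference of -0.55 ± 0.42 in EV.

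**Figure D4:**
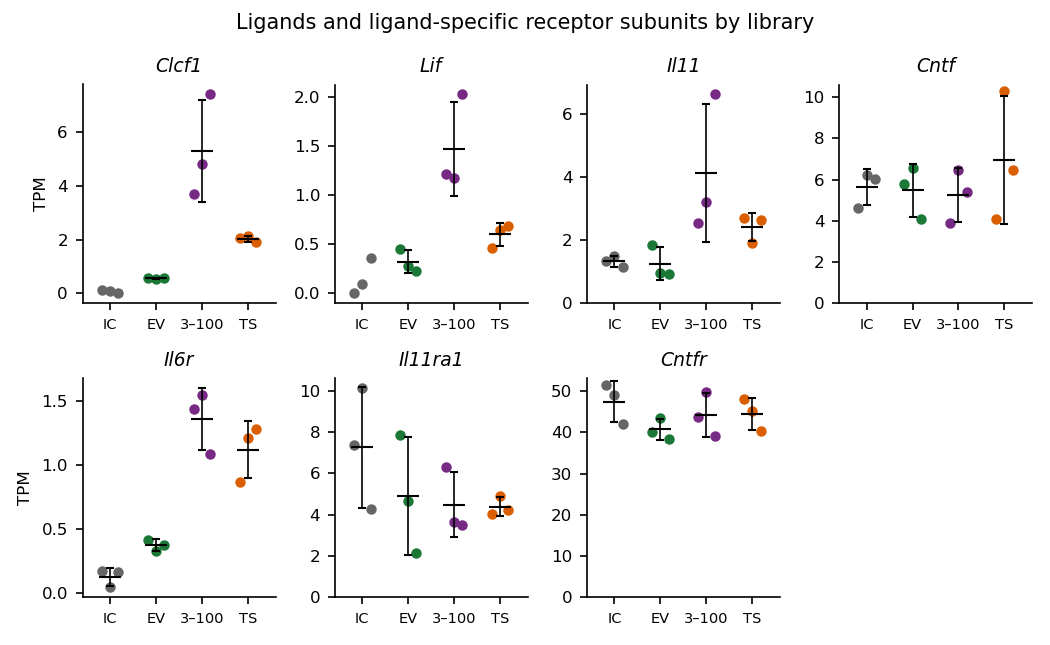
Level (TPM, linear axes) of 4 ligand genes and 3 ligand-specific receptor subunits in each library; points are libraries, black bars the mean ± SD where no library of the group is listed at 0, and TS is the total secretome. Clcf1, Lif, Il11 and Il6r have their highest mean in 3–100 kDa proteins, whereas Cntf and Cntfr overlap between the groups.

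No gene among the other JAK, STAT and adaptor genes or among the inhibitors other than Socs3 passed the test in any comparison. Of the first list, 11 of 12 names were in the files and 8 were tested against IC. In EV, values were computed for Gab1, an adaptor that links gp130 to the MAP kinase pathway (log2 difference 0.35 ± 0.20), and Ptpn11, the phosphatase SHP2 (0.13 ± 0.13), with adjusted p-values close to 1 (limma). Of the inhibitors, 13 of 14 were tested in EV, with the lowest p-values for Socs2 (0.55 ± 0.26), Ptpn1 (0.28 ± 0.18) and Pias3 (-0.26 ± 0.17), the protein inhibitor of activated STAT3. At an unadjusted p under 0.05, 0 genes of either list passed in EV, beside 2.82% of all genes in either direction. Gab1 passed that threshold in total secretome. So did 3 inhibitors in 3–100 kDa proteins (2 higher and 1 lower) and 4 in total secretome (3 higher and 1 lower). The shares of all genes were 17% in 3–100 kDa proteins and 16.2% in total secretome. The lower inhibitor was Pias3 in both. It had 12.7 to 17.1 TPM in IC, 6.48 to 9.26 TPM in 3–100 kDa proteins and 9.20 to 10.5 TPM in total secretome. The median log2 difference in EV was 0.11 for the signalling genes and 0.16 for the inhibitors, beside -0.01 for all genes.

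Textbook STAT3 targets were the longest list. Of 20 listed, 18 were in the files and 16 were tested in each comparison. By adjusted p (limma), 2 rose in EV (beside 0.102% of all genes), 4 in 3–100 kDa proteins (2.82%) and 4 in total secretome (1.68%), and none was called lower than IC. With each preparation 8 of 16 lay above all IC libraries, beside 3.21% of all genes in EV, 10.7% in 3–100 kDa proteins and 11.4% in total secretome. In 3–100 kDa proteins 2 lay below all IC libraries, and in the other 2 groups 0 did. The median log2 difference was 0.70 in EV, 0.80 in 3–100 kDa proteins and 0.65 in total secretome. Many of these genes are also induced by other pathways.

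Timp1, an inhibitor of matrix metalloproteinases, was the target with the largest difference. It had 9.24, 19.7 and 8.90 TPM in IC, 101, 125 and 95.4 TPM in EV, 218, 200 and 260 TPM in 3–100 kDa proteins and 97.0, 170 and 169 TPM in total secretome. It rose by 3.06 ± 0.29 (adjusted p = 0.0153, limma), 4.17 ± 0.30 (adjusted p = 0.00129) and 3.49 ± 0.36 (adjusted p = 0.00586) in this order. The call in EV was lost without IC replicate 1 (0.114) or 3 (0.0772) and without EV replicate 1 (0.0854), 2 (0.216) or 3 (0.119). Without 1 library the log2 difference of Timp1 in EV ran from 2.86 to 3.40. EV lay below 3–100 kDa proteins by -1.10 ± 0.17 (adjusted p = 0.0607, 0.0323 with the replicate block and 0.039 without rescaling).

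Fos, an immediate early gene, had 4.46, 4.05 and 2.24 TPM in IC and 21.8, 19.4 and 15.3 TPM in EV. It rose by 2.13 ± 0.24 in EV (adjusted p = 0.0398, limma) and by 2.23 ± 0.26 in total secretome (adjusted p = 0.0088), and had a log2 difference of 1.37 ± 0.29 (SE) in 3–100 kDa proteins (adjusted p = 0.0512), which passed without 3–100 kDa protein replicate 1 (0.0472), without rescaling (0.0486), without small RNA and rRNA genes (0.0475) and in the fit of all 12 libraries (0.0113). In EV its call was lost without any 1 of the 6 libraries (adjusted p from 0.0603 to 0.307), with a pseudocount of 0.1 (0.0515), with no filter (0.0918) and with a filter at a mean of 5 TPM (0.0653), and in total secretome without replicate 2 (0.0679) or 3 (0.0685). Without 1 library the log2 difference of Fos in EV ran from 1.94 to 2.25. Its partner Junb was highest in EV with 15.4, 13.1 and 14.2 TPM, against 5.34, 4.72 and 4.85 TPM in IC, and had an adjusted p of 0.0649.

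By mean TPM, Ccnd1, Vim and Myc were highest in 3–100 kDa proteins. For Vim, total secretome (331 to 515 TPM) overlapped 3–100 kDa proteins (437 to 622 TPM). For Myc the ranges were 30.4 to 35.6 and 35.3 to 49.1 TPM, which also overlapped. Ccnd1, which encodes cyclin D1, had 25.9, 40.4 and 24.6 TPM in IC, 60.0, 88.6 and 65.7 TPM in EV and 158, 211 and 182 TPM in 3–100 kDa proteins. It rose by 2.62 ± 0.21 with 3–100 kDa proteins (adjusted p = 0.00143, limma) and by 2.10 ± 0.27 with total secretome (adjusted p = 0.0117), and EV lay below 3–100 kDa proteins by -1.39 ± 0.17 (adjusted p = 0.0244). The call with total secretome was lost without IC replicate 1 (0.062) or total secretome replicate 2 (0.0855) or 3 (0.0775). That between EV and 3–100 kDa proteins was lost without 3–100 kDa protein replicate 2 (0.159) or 3 (0.171) or EV replicate 2 (0.0704) or 3 (0.113).

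Vim, the intermediate filament of immature and reactive astrocytes, had 107, 196 and 101 TPM in IC and 437, 585 and 622 TPM in 3–100 kDa proteins. It rose by 2.10 ± 0.29 with 3–100 kDa proteins (adjusted p = 0.0108, limma) and by 1.70 ± 0.29 with total secretome (adjusted p = 0.0333). Myc rose by 1.16 ± 0.19 with 3–100 kDa proteins (adjusted p = 0.0211). With 3–100 kDa proteins the call of Vim was lost without IC replicate 1 or 3–100 kDa protein replicate 2 or 3 (adjusted p from 0.0539 to 0.0646), and that of Myc without IC replicate 1 or 3 or 3–100 kDa protein replicate 2 or 3 (from 0.0665 to 0.13). When 1 library was left out, the call of Vim with total secretome was kept only without IC replicate 2 and was otherwise lost (from 0.0515 to 0.178), also with no filter (0.0631). Myc, not called with total secretome (adjusted p = 0.0512, limma), passed without IC replicate 2 (0.041), with a filter at a mean of 5 TPM (0.0474), without small RNA and rRNA genes (0.0483) and in the fit of all 12 libraries (0.0265).

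Gfap, the filament protein that marks astrocytes, varied within groups. It had 85.1, 361 and 128 TPM in IC and 491, 617 and 362 TPM in EV, and its log2 difference of 1.58 ± 0.51 (SE) was not called by limma, with an adjusted p close to 1. Between total secretome and IC the difference was 1.40 ± 0.55, with an adjusted p of 0.269, or 0.0256 with the replicate block. The 7 astrocyte markers summed to 801 to 1074 TPM in IC and 1091 to 1467 TPM in EV. Without Gfap the sums were 673 to 834 TPM in IC, 599 to 850 TPM in EV, 671 to 934 TPM in 3–100 kDa proteins and 804 to 885 TPM in total secretome. These ranges without Gfap overlapped between all groups. With Gfap the sums of IC and EV did not overlap, and every EV library had more Gfap than every IC library.

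**Figure D5:**
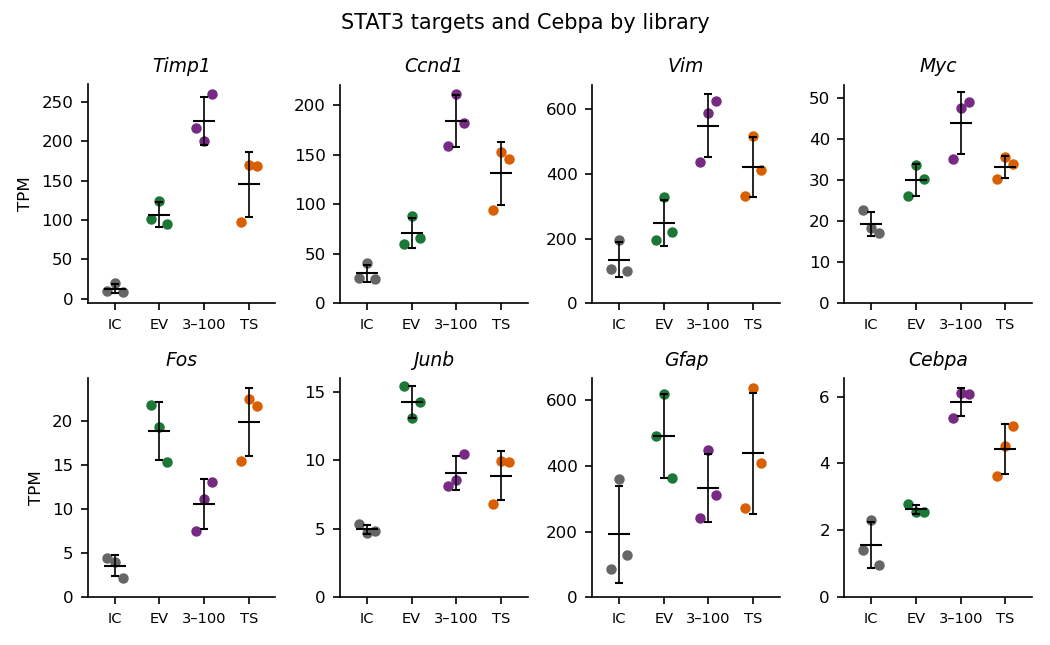
Level (TPM, linear axes) of 7 STAT3 targets and Cebpa in each library; points are libraries, black bars the mean ± SD, and TS is the total secretome. Timp1, Ccnd1, Vim, Myc and Cebpa have their highest mean in 3–100 kDa proteins, Junb is highest in EV, and the groups of Gfap spread widely.

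Of the other C/EBP genes, Cebpa passed the test, with 1.42, 2.30 and 0.979 TPM in IC, 2.79, 2.54 and 2.56 TPM in EV, 5.35, 6.10 and 6.08 TPM in 3–100 kDa proteins and 3.63, 4.54 and 5.11 TPM in total secretome. It rose by 1.47 ± 0.24 with 3–100 kDa proteins (adjusted p = 0.0227, limma). It reached the 1 TPM of the filter in 2 of 3 IC libraries, and with no filter its adjusted p was 0.0414. That call was lost without IC replicate 1 (0.105) or 3 (0.0678) or any 3–100 kDa protein library (from 0.0541 to 0.14), and without IC replicate 2 Cebpa passed with total secretome (0.035), as it did in the fit of all 12 libraries (0.0155). Cebpa and Cebpd thus had their highest levels in different groups, Cebpa in 3–100 kDa proteins and Cebpd in EV. Cebpe was listed at 0 in all libraries. Of 10 NF-κB genes related to Bcl3, 0 were called by limma, 1 had an unadjusted p under 0.05 in EV (beside 2.82% of all genes), 3 in 3–100 kDa proteins (17%) and 3 in total secretome (16.2%), and in EV the lowest p belonged to Rela (0.52 ± 0.18), followed by Nfkb1 (0.34 ± 0.18) and Nfkbie (0.21 ± 0.32).

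Genes most like Stat3 over the 12 libraries, by Pearson's r of log2(TPM + 1) over 13271 genes, included Tnfrsf1a (r = 0.965), S1pr3 (0.957), Hmox1 (0.952) and Osmr (0.951). Those most like Osmr included S1pr3 (0.958), Tubb6 (0.952), Stat3 (0.951) and Lhfpl2 (0.947). All were lower in IC than in the 3 treated groups, so r largely restates the gap between IC and the rest. Tnfrsf1a, a receptor of tumour necrosis factor, had 14.9 ± 2.05 TPM in IC and 37.4 ± 6.26 TPM in EV (n = 3 each). Hmox1, the haem-degrading enzyme haem oxygenase 1, had 15.2 ± 4.14 and 45.3 ± 6.06 TPM, and S1pr3, a receptor of sphingosine 1-phosphate, had 5.18 ± 1.78 and 27.4 ± 7.46 TPM.

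The RefSeq start windows of the members ran from 250 bases before to 50 bases after the start on the GRCr8 assembly. They were searched on both strands for the STAT motif TTCNNNGAA and for the pattern TGANTCA. That pattern is looser than the AP-1 motif, which has G or C at its centre. It was added after the values were seen because Fos and Junb differed. Windows were found for 8 of the 10 members. The STAT motif was in 0 of the 8, beside 8.87% of all 33469 windows. The pattern TGANTCA was in 1, that of Osmr, beside 7.33% of all windows, and began 33 bases before the start. This match has T at its centre and so is not the AP-1 motif. The stretch around the match is printed because Osmr differed most, in lower case with the match in capitals, from the minus strand at chr2:57688576-57688605 of GRCr8.
Osmr: tgccccgcagcTGATTCAtagccggggcgc
The starts used for Il6st, Osmr, Lifr, Stat3 and Socs3 lie inside the annotated span of their gene. A match is a description of these letters and not a site, and its absence says only that the letters are not in this window.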

How the data were processed

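RNA-seq of 12 libraries (4 groups of 3) was analysed. According to the study's methods, the authors trimmed the reads and estimated transcript levels in Salmon, with rat transcripts as reference (the submitters' processing notes name Rnor_6.0), and tximport gave one value per gene. The deposited values are TPM, which sum to 1000000 per library and keep no depth. The labels describe a strand-specific DNBSEQ library and the article another kit and instrument.

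Rows sharing a gene name were summed (32285 rows, 28111 names). Each pair of groups was rescaled by the median of ratios, filtered at 1 TPM or more in at least 3 of its libraries, and fitted on log2(TPM + 1) with limma 3.58.1 in R 4.3.3 with a mean-variance trend and Benjamini-Hochberg adjustment over all genes tested (threshold 0.05). The procedure was tested on simulated data. The members and gene lists were chosen with earlier results of these data known, and the alternatives were fixed before this fit, except the one that leaves out 2 libraries.

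Named genes are all members, every listed gene called in any comparison, otherwise the 3 of lowest p per list in EV against IC, genes listed at 0 throughout, and the 5 most like Stat3 and Osmr. Lif, Il11 and Il6 were named after their values were seen, as were Gfap and Vegfa. Some genes that this rule names are not reported here.

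Replicate numbers from the labels were taken to pair libraries where same-numbered deviations from the group means correlated above 0.1 in every pair. This held for total secretome against IC (r of 0.25, 0.16 and 0.16), EV against 3–100 kDa proteins (0.59, 0.29 and 0.30), EV against total secretome (0.26, 0.19 and 0.21) and total secretome against 3–100 kDa proteins (0.38, 0.22 and 0.24). It did not hold for EV or 3–100 kDa proteins against IC. Numbers that pair total secretome with IC and with the other preparations would also pair those preparations with IC. The rule rests on 3 libraries per group, so it cannot decide whether libraries are paired. The article's supplement mentions a day of experiment that was adjusted for in a plot of IC and EV, and the labels give no day, so whether the numbers mark days is not known.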

Additional observations from a re-analysis of the deposited data

How the results depend on the processing

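The median log2 difference of the members moved from 0.76 to 0.29 in EV and from 0.79 to 0.36 in total secretome, against IC, when only genes with a mean of at least 5 TPM were kept, a filter that leaves fewer members. Leaving out 1 library at a time it ran from 0.44 to 1.07 (EV), 0.32 to 0.81 (3–100 kDa proteins) and 0.53 to 1.09 (total secretome) against IC, from -0.19 to 0.19 (EV minus 3–100 kDa proteins), from -0.17 to 0.26 (EV minus total secretome) and from -0.08 to 0.14 (total secretome minus 3–100 kDa proteins). The same omissions turned the sign of small differences, none of them called. In EV against IC these were Lifr (-0.18 to 0.60), Jak1 (-0.10 to 0.44) and Il6st (-0.0002 to 0.52). Against IC with the other preparations they were Il6st (-0.045 to 0.45) and Lifr (-0.049 to 0.58) with 3–100 kDa proteins and Lifr (-0.013 to 0.61) with total secretome. Between preparations the omissions were run only for Stat3, Osmr, Socs3, Cebpd and listed genes that passed in some comparison. There they were Stat3 (-0.051 to 0.19) and Osmr (-0.81 to 0.080) for EV minus 3–100 kDa proteins, Stat3 (-0.11 to 0.080), Osmr (-0.56 to 0.32) and Fos (-0.29 to 0.037) for EV minus total secretome, and Stat3 (-0.050 to 0.20) for total secretome minus 3–100 kDa proteins. Why they moved was not tested.

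Osmr could not be tested against IC without a treated library, since too few libraries then passed the filter. Stat3 kept its call with 3–100 kDa proteins (adjusted p from 0.000254 to 0.0481, limma), and with total secretome except without replicate 3. Socs3 with total secretome lost its call in 8 of 13 alternatives, also with a pseudocount of 0.1 (0.0523) and with no filter (0.0574). With a pseudocount of 0.1 the log2 difference of Osmr in EV was 4.51 and that of Socs3 2.39. Without EV replicate 1 and IC replicate 2 together, a choice made after seeing the data, that of Stat3 was 1.49.

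With the replicate number as a block, genes called between EV and 3–100 kDa proteins went from 5 higher and 63 lower to 69 and 270, and Vim (adjusted p = 0.0206) and Vegfa were among them. Vegfa, which encodes an angiogenic growth factor, had a log2 difference of -0.81 and an adjusted p of 0.321 without the block and 0.02 with it. The rule for pairing was not met by EV with IC (r of -0.08, -0.18 and 0.54) or by 3–100 kDa proteins with IC (-0.01, -0.25 and 0.25). This does not show that those libraries are unpaired. There the replicate block took the calls in EV from 13 higher and 5 lower to 0 and in 3–100 kDa proteins from 361 and 62 to 177 and 16, and Stat3, Timp1 (0.0629) and Fos (0.0669) in EV and Cebpa (0.0694), Myc (0.0805), Pdgfrb (0.0522) and Il6r (0.143) with 3–100 kDa proteins were not called. It also changed the calls of Socs3 and Gfap with total secretome and of Cebpd, Timp1 and Olig1 between EV and 3–100 kDa proteins, whose values are given with the comparisons. A fit of all 12 libraries called 55 higher and 3 lower in EV, 662 and 250 in 3–100 kDa proteins and 423 and 110 in total secretome. Without IC replicate 1, 0 genes were called in EV by limma, with 247 at an unadjusted p under 0.05, and 0 without EV replicate 1, 2 or 3, with 607, 230 and 247. Without IC replicate 2, 21 were called higher and 0 lower, with 397 at an unadjusted p under 0.05. Without IC replicate 3 these numbers were 2, 0 and 295.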
